A study of Homo sapiens with 6 samples.

Results

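The aryl hydrocarbon receptor (AHR), its dimerization partner ARNT and 6 of the best known AHR target genes (AHRR, TIPARP, CYP1A1, CYP1A2, CYP1B1 and ALDH3A1) were followed in HepG2 cells treated with polydatin (PD). The 8 genes were chosen by name, and 7 of them were matched by Ensembl identifier to GENCODE release 44 symbols among the 28563 genes of the table. CYP1A2 was not analysed here. HepG2 is an established human liver cancer cell line, and PD, also called piceid, is a plant compound that consists of resveratrol joined to a glucose. In 3 dishes the cells received PD dissolved in DMSO for 24 h, and in the other 3 dishes they received DMSO alone. PD was applied at 336 µM according to the labels, and the published methods state a lower dose. All values come from this single cell line, and p-values measure the spread between dishes of each treatment.

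AHR is a ligand-activated transcription factor that waits in the cytosol in a complex with HSP90. When a ligand such as dioxin, a polycyclic aromatic hydrocarbon or a tryptophan metabolite binds, AHR enters the nucleus, pairs with ARNT and binds DNA at the core motif GCGTG, often within TNGCGTG. CYP1A1, CYP1A2 and CYP1B1 encode monooxygenases that oxidize many of these ligands, and AHRR and TIPARP encode repressors that close a negative feedback loop on AHR. In liver cells, induction of CYP1A1 is the classic sign of AHR activation.

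Library totals worked back from FPKM were 16308476 to 18071632 fragments, nearly all in the genes of the table, with similar depth in both treatments. The label of liver cells was compared with 20 hepatocyte markers, of which 11 were analysed. Only CPS1 and RBP4 of these reached 1 FPKM in any library, and the other 9, including HNF4A, SERPINA1 and APOA1, were at most 0.172 FPKM. CPS1 was high, with means of 225 FPKM in DMSO and 109 FPKM in PD. RBP4 had means of 0.391 FPKM in DMSO and 1.30 FPKM in PD. Apart from CPS1, the analysed hepatocyte markers thus do not bear out the label, and the cells are called HepG2 as the labels name them. Of 5 epithelial markers, KRT8 and KRT18 were at 45.6 FPKM or more in every library, EPCAM was at most 1.54 FPKM, CDH1 was at most 0.145 FPKM and KRT19 was not analysed here. Of 5 mesenchymal markers, 4 were analysed and summed to 24.0 to 25.5 FPKM in DMSO and 32.5 to 34.1 FPKM in PD, most of it from VIM. The 3 analysed endothelial markers summed to at most 0.0681 FPKM and the 2 analysed leukocyte markers to at most 0.721 FPKM in any library. The part of these markers in the results was not tested.

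PD-treated cells had lower FPKM of the 5 analysed AHR target genes among the members, while AHR and ARNT themselves showed no detectable change. CYP1B1, AHRR, ALDH3A1 and TIPARP were all downregulated, by 3.63-fold, 2.33-fold, 2.07-fold and 1.72-fold in mean FPKM, and CYP1A1, too low for the main test, was 6.83-fold lower. FPKM scales the fragments counted for a gene by both its length and the depth of the library. In bulk RNA, fewer cells that express a gene and less RNA per cell cannot be told apart.

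The DNA before RefSeq starts of target genes is shown because it contains the letters that AHR and ARNT bind. RefSeq starts can differ from the GENCODE gene spans given below. For TIPARP and AHR, the RefSeq starts used lie well inside that span. The RefSeq promoter windows, 250 bases before and 50 after each start in GRCh38, held at least 1 start for 6 of the 8 genes, and those for CYP1B1 and ALDH3A1 were not used here. In the following sequences, which are read 5′ to 3′ along the strand of the gene, capitals mark GCGTG or its reverse complement for AHRR and TIPARP, and TNGCGTG or its reverse complement for CYP1A1. The AHRR and TIPARP sequences are the 250 bases before the first RefSeq start, at chr5:321464-321713 (plus strand) and chr3:156674340-156674589 (plus strand), and the latter overlaps an annotated exon of the antisense gene TIPARP-AS1. The CYP1A1 sequence is the stretch of 200 bases with the most TNGCGTG matches upstream of the gene, at chr15:74726405-74726604 on the minus strand.
AHRR: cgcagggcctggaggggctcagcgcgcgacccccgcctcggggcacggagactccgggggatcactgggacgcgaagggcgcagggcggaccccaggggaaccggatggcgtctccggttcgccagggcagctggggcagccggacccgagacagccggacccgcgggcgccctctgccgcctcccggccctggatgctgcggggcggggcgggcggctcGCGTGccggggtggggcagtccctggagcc
TIPARP: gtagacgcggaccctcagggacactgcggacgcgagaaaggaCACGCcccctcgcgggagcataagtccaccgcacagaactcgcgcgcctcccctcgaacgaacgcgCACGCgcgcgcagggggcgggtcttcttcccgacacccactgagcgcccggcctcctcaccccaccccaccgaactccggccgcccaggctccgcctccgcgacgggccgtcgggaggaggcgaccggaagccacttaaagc
CYP1A1: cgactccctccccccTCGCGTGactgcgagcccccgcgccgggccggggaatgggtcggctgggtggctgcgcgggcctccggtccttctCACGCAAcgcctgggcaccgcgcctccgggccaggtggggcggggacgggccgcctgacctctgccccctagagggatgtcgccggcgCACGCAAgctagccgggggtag

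The CYP1A1 stretch spans positions -1076 to -877 relative to the start and holds 3 of the 5 TNGCGTG matches found on both strands in the 1500 bases upstream. Among all 35116 promoters of the table, 0.023% had at least 5 such matches in a window of that size, and 23.2% had at least 1. TNGCGTG contains GCGTG, so each of its matches is also counted as a GCGTG match. CYP1A1 had 10 GCGTG matches in 1500 bases, TIPARP 6, ARNT 5, AHRR 4 and AHR 0, where AHRR and TIPARP were read from their first start. From the same starts, the TNGCGTG matches were 2 for ARNT, 1 for AHRR, 0 for TIPARP and 0 for AHR. At least 2 TNGCGTG matches were found upstream of 3.66% of promoters. At least 1 GCGTG was found upstream of 72.9% of promoters, so 1 match of the short motif alone is common. At least 4, 5, 6 and 10 GCGTG matches were found upstream of 18.5%, 10.6%, 5.9% and 0.629% of promoters. A match is a description of the letters and not a measured binding site.

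AHR, on chromosome 7 from 16916359 to 17346152, had 4.70, 4.70 and 3.60 FPKM in DMSO replicates 1, 2 and 3, and 4.67, 5.24 and 3.80 FPKM in PD replicates 1, 2 and 3. The ranges of both treatments overlapped, and replicate 3 was the lowest of each group. On the log2(FPKM + 1) scale, the fold change was 0.06 ± 0.12 (SE, limma adjusted p = 0.69). The 95% interval of this change ran from -0.22 to 0.35, so a modest change of AHR in either direction was not detectable with 3 dishes.

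ARNT, the nuclear partner of AHR, lies on chromosome 1 from 150809713 to 150876708. It had 11.5, 11.0 and 10.4 FPKM in DMSO and 11.0, 10.4 and 11.3 FPKM in PD. The groups overlapped, and the log2 fold change was -0.01 ± 0.05 (SE, limma adjusted p = 0.94). Its 95% interval, from -0.13 to 0.12, was narrower than that of AHR.

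The 14400 genes whose mean reached 0.5 FPKM were tested, and 58.1% of them passed the threshold (adjusted p no larger than 0.05), 31.9% being higher and 26.2% lower in PD. Genes that also changed by at least 2-fold on the log2(FPKM + 1) scale were called DEGs, and DEGs made up 3.61% of the genes tested, with 1.57% downregulated. Among the 8 AHR pathway genes, 6 were tested, 4 of them passed as lower in PD, and 2 of these (CYP1B1 and AHRR) were downregulated DEGs. The tested members past the threshold made up 66.7%, near the share of all tested genes in either direction, and all of them were lower in PD. With limma voom on the fragments, 5 members were lower and 4 were downregulated DEGs, both counts including CYP1A1. CYP1A1 entered that test only through its level in DMSO, so its place in both counts is a description. By voom, 62.7% of genes passed (34.4% higher and 28.3% lower in PD) and 4.8% were downregulated DEGs.

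**Figure D1:**
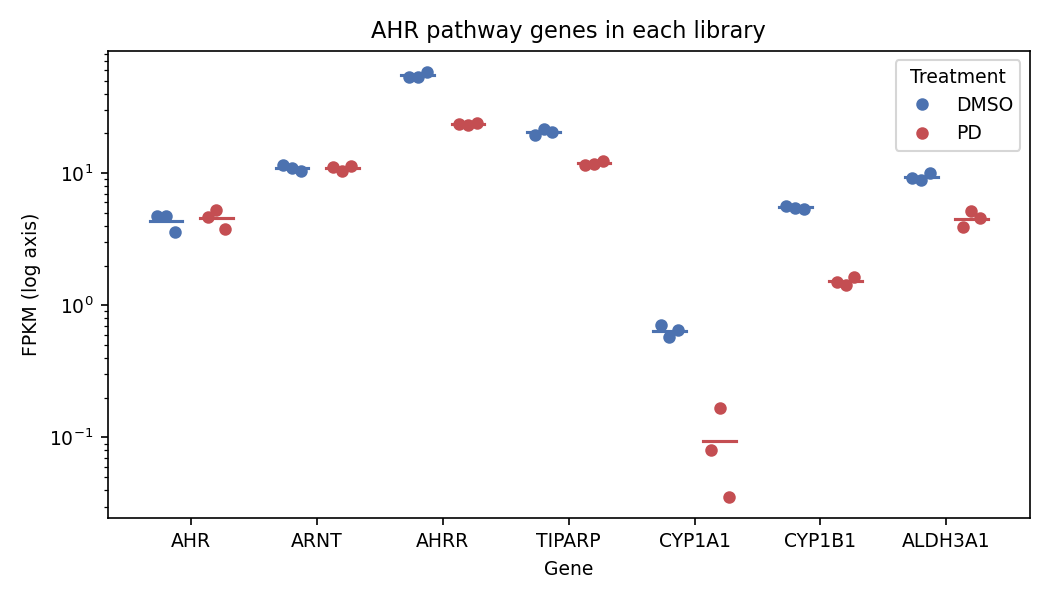
FPKM of the 7 analysed genes in each library, on a log axis, with DMSO in blue and PD in red. Points are the 3 libraries per treatment and bars are means. AHR and ARNT overlap between treatments, whereas all PD libraries lie under all DMSO libraries for the 5 target genes. The same holds for 29.9% of all tested genes, and CYP1A1 was not among the genes tested.

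AHRR encodes the AHR repressor, which competes with AHR for ARNT and for the same DNA motif, and lies on chromosome 5 from 321714 to 438291. It had 53.0, 53.8 and 58.3 FPKM in DMSO and 23.5, 23.1 and 24.2 FPKM in PD, the highest levels of the 7 genes in both treatments. Every PD library was below every DMSO library, as for 65.4% of tested genes in one direction or the other and 29.9% with PD lower. The means were 55.0 ± 2.83 and 23.6 ± 0.534 FPKM (SD, n = 3 each), and the log2 fold change was -1.19 ± 0.04 (SE, limma adjusted p = 3.2e-06). Exons of AHRR are shared with the annotated readthrough gene PDCD6-AHRR, so its fragments are less certain. PDCD6, the upstream gene that takes part in the readthrough, went from 21.1 ± 0.478 to 17.0 ± 0.301 FPKM (n = 3 each, SD), for which the log2 fold change was -0.30 with an adjusted p of 0.00033 (limma).

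TIPARP, also known as PARP7, encodes a mono-ADP-ribosyltransferase that modifies AHR and lowers its activity. The gene lies on chromosome 3 from 156673235 to 156706770. Its levels were 19.3, 21.7 and 20.5 FPKM in DMSO and 11.6, 11.7 and 12.4 FPKM in PD, with no overlap between the groups. The log2 fold change of -0.74 ± 0.05 (SE, limma adjusted p = 2.6e-05) was short of 2-fold and the smallest of the 4 tested target genes.

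CYP1B1 encodes an enzyme that oxidizes polycyclic hydrocarbons and estrogens, and lies on chromosome 2 from 38066973 to 38109902. It had 5.66, 5.46 and 5.39 FPKM in DMSO, and 1.49, 1.43 and 1.63 FPKM in PD. The groups were far apart relative to their spread, with a log2 fold change of -1.37 ± 0.06 (SE, limma adjusted p = 4.2e-06). Exons of CYP1B1 overlap the antisense gene CYP1B1-AS1, which was itself listed at 1.82 ± 0.0678 FPKM in DMSO and 0.361 ± 0.0349 FPKM in PD (SD, n = 3 each). CYP1B1-AS1 reached the minimum of 0.5 FPKM only through its level in DMSO, so no test of it is given. Because the sources used here do not say whether counting used strand, reads of the sense and antisense genes cannot be told apart.

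CYP1A1 lies on chromosome 15 from 74719542 to 74725536 and encodes the enzyme whose induction defines the AHR response. It was listed at 0.708, 0.573 and 0.647 FPKM in DMSO and at 0.0805, 0.166 and 0.0357 FPKM in PD. These values stand for 42, 33 and 38 fragments in DMSO and 5, 10 and 2 fragments in PD. The mean over the 6 libraries was under 0.5 FPKM, so CYP1A1 was not among the genes tested. Summed over libraries, 113 fragments in DMSO stood against 17 in PD, a ratio of 6.75 after division by library totals, with an exact 95% interval of 4.03 to 12.0 that covers counting error only. With limma voom on the fragments, CYP1A1 had a log2 fold change of -2.86 ± 0.41 (SE). It entered that fit only through its level in DMSO, so no p-value of that fit is given.

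ALDH3A1 encodes an aldehyde dehydrogenase of the classic dioxin-responsive gene battery, and lies on chromosome 17 from 19737984 to 19748943. Its levels were 9.26, 8.88 and 10.1 FPKM in DMSO and 3.88, 5.14 and 4.59 FPKM in PD. All PD libraries were lower, although their spread was the largest of the tested target genes in PD relative to the mean. The log2 fold change was -0.91 ± 0.09 (SE, limma adjusted p = 0.00012). The gene passed 2-fold with a pseudocount of 0.1 (-1.04) and with voom (-1.06).

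For CYP1A1 and for each of the 4 tested target genes, a two-sided exact permutation test of the 3 PD against the 3 DMSO libraries gave p = 0.10, which is the smallest value that 3 against 3 can give. The same test gave 0.70 for AHR and 1.0 for ARNT.

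**Figure D2:**
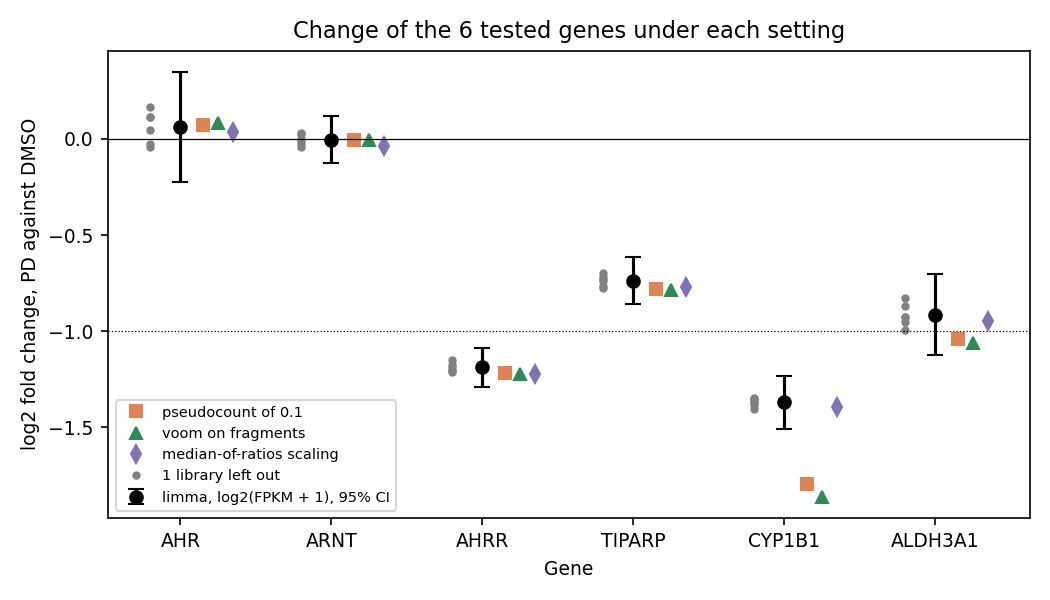
Log2 fold change of PD against DMSO for the 6 tested genes, with black points and bars for limma on log2(FPKM + 1) and its 95% interval. Orange, green and purple symbols are a pseudocount of 0.1, voom and median-of-ratios scaling, and grey points leave out 1 library each. AHR and ARNT stay near 0, and the 4 target genes stay between -0.70 and -1.86.

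The sizes of the change were compared between the 4 tested target genes. Within each library, the log2 ratio of CYP1B1 to TIPARP was between -1.99 and -1.77 in DMSO and between -3.03 and -2.92 in PD, a shift of -1.08. The ratios of CYP1B1 to ALDH3A1 and to AHRR shifted by -0.80 and -0.64, and the ratio of AHRR to TIPARP by -0.44, again with no overlap between treatments. For AHRR to ALDH3A1 (-0.16) and ALDH3A1 to TIPARP (-0.27) the treatments overlapped. Over the 6 pairs, an exact permutation test gave p = 0.10 for each of the 4 pairs without overlap, the smallest possible value, and 0.15 after adjustment over the pairs.

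In DMSO the order of the levels per length was AHRR, TIPARP, ARNT, ALDH3A1, CYP1B1, AHR and CYP1A1, and no neighbours in this order overlapped. In PD, AHR moved ahead of ALDH3A1 and CYP1B1, with means of 4.57 FPKM for AHR and 4.54 FPKM for ALDH3A1. These were the only neighbours in PD whose libraries overlapped. AHRR exceeded AHR in every library of both treatments.

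The profiles most like those of the members were sought among 7554 other tested genes whose mean reached 5 FPKM, by the root mean square distance of log2(FPKM + 1) from the DMSO mean over the 6 libraries. AHRR was closest to TNFAIP2 (distance 0.04), which went from 94.1 to 40.6 FPKM, then to AJUBA and GAS1. TIPARP was closest to CD55, TSC22D1 and TGFBR3, and ALDH3A1 to IKBKE, WNT7B and P2RY6. The genes closest to CYP1B1 were ZBED10P, AURKA and DUSP5P1, of which the first and last are named as pseudogenes and may share reads with copies. AHR was closest to LMBRD1, ATP6V1G1 and HMGN2P5, and ARNT to PPFIA1, GDI2 and STAM, none of which passed the threshold.

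Other genes of the pathway were counted in 7 lists with 92 genes in all, of which 55 were tested, and NCOA1, NCOA2 and NCOA3 stood in both the bHLH-PAS and the coregulator list. Of the tested genes, 13 (23.6%) passed as higher and 19 (34.5%) as lower in PD, against 31.9% and 26.2% of all tested genes, and these shares are the background for each list. The lists held 2 upregulated and 3 downregulated DEGs, and the 58.2% past the threshold in either direction was close to the 58.1% of all tested genes. The lower genes and downregulated DEGs include IL6, which reached the minimum of 0.5 FPKM only through its level in DMSO. All lists were chosen with earlier results of these data known. The median log2 fold change of the 55 genes was -0.01, and that of all tested genes was 0.01.

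All 6 genes listed for the cytosolic AHR complex were tested, and 2 rose and 3 fell, each by less than 2-fold. HSP90AA1 rose by 0.30, while HSP90AB1, the more abundant HSP90 gene, fell by 0.15. PTGES3, which encodes the p23 co-chaperone, fell by 0.37, and the nuclear export receptor gene XPO1 fell by 0.44. The kinase gene SRC had a change of -0.01 and did not pass the threshold. All changes in this paragraph are on the log2 scale.

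Of the other bHLH-PAS proteins and their coactivators, 11 of 16 genes were tested, with 2 higher, 2 lower and a median log2 fold change of 0.01. HIF1A, which also pairs with ARNT and mediates the response to low oxygen, fell by 0.60 on the log2 scale, from 30.2 ± 2.05 to 19.6 ± 0.886 FPKM (SD, n = 3 each). SIM2 fell by 0.45, NCOA1 rose by 0.28 and EPAS1, which encodes HIF-2α, rose by 0.13. ARNT2, the close relative of ARNT, was at most 0.0311 FPKM in any library. Among the AHR coregulators, 15 of 16 genes were tested, with 2 higher, 7 lower and a median of -0.11. Among the largest changes were those of RELB (-0.61), an NF-κB subunit that can pair with AHR, RB1 (-0.42) and CREBBP (-0.40).

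Not every gene with known AHR sites was lower in PD. Of 8 phase II and related xenobiotic genes, 4 were tested, 2 of them higher and 1 lower, with a median log2 fold change of 0.30. NQO1, a quinone reductase gene that is controlled by both AHR and NRF2, had 138, 142 and 141 FPKM in DMSO and 186, 188 and 184 FPKM in PD. All PD libraries were above all DMSO libraries, and the log2 fold change was 0.41 ± 0.03 (SE, limma adjusted p = 1.7e-05). CYP2S1, a cytochrome P450 gene that dioxin can induce, had 8.04, 8.20 and 8.30 FPKM in DMSO and 13.8, 13.7 and 14.7 FPKM in PD, a log2 fold change of 0.71 with an adjusted p of 1.4e-05 (limma). NFE2L2, which encodes NRF2, went the other way, from 29.6 ± 0.820 to 15.6 ± 0.976 FPKM (n = 3 each, SD), for which the log2 fold change was -0.88. Exons of NFE2L2 overlap those of other annotated genes, so its fragments are less certain. The same limit holds for other genes named here, including NQO1, HIF1A, IL6, POR and EPHX1. ABCG2 (0.19) did not pass the threshold with an adjusted p of 0.067 (limma). With voom, ABCG2 passed as higher (0.33, adjusted p = 0.047).

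Of 20 other genes known to respond to AHR in some cells, 11 were tested. Of these, 1 was higher (9.09%) and 6 were lower (54.5%), with a median log2 fold change of -0.30. This list was chosen with earlier results of these data known, so its shares are a description. Among all tested genes, 31.9% were higher, 26.2% were lower and 1.57% were downregulated DEGs. IL6, a cytokine gene, had 4.11, 3.86 and 3.70 FPKM in DMSO and 0.160, 0.165 and 0.296 FPKM in PD. The PD libraries held 6, 6 and 10 fragments of IL6, and the log2 fold change was -2.02 on the FPKM + 1 scale and -4.21 with voom. IL6 passed the filters of both fits only through its level in DMSO, so its place among the 6 lower genes and among the DEGs is a description. TNFAIP2 (-1.19) and STC2 (-1.02), which encodes the secreted glycoprotein stanniocalcin 2, were the other downregulated DEGs. CDKN1B, which encodes the cell cycle inhibitor p27, fell from a mean of 51.7 (SD 0.624) in DMSO to 25.9 (SD 0.631) FPKM in PD with n = 3 each, and its log2 fold change was -0.97. LPCAT2 was the gene that rose, from 0.913 ± 0.0859 to 2.36 ± 0.110 FPKM (n = 3 each, SD), for which the log2 fold change was 0.81, or 1.37 with voom. SLC7A5, an amino acid transporter gene with at least 893 FPKM in every library, did not pass the threshold (-0.02).

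The kynurenine pathway, which makes AHR ligands from tryptophan, had 7 of its 10 genes under the minimum of 0.5 FPKM. The other 3 were tested, and KYAT1 was the one that rose, by 0.24 on the log2 scale (limma adjusted p = 0.026), a call that was lost with no filter on FPKM (adjusted p = 0.064). The enzymes of the first step, TDO2, IDO1 and IDO2, were at most 0.125 FPKM in any library. Among 20 other xenobiotic oxidase genes and their regulators, 8 were tested, and 4 rose and none fell, with 4 not past the threshold at adjusted p of 0.054 to 0.77 (limma). POR, the reductase that supplies electrons to microsomal P450 enzymes including the CYP1 family, rose from a mean of 8.59 (SD 0.936) in DMSO to 20.6 (SD 1.03) FPKM in PD with n = 3 each, and its log2 fold change was 1.18. EPHX1, the microsomal epoxide hydrolase gene, rose from a mean of 38.4 (SD 2.32) in DMSO to 84.4 (SD 4.16) FPKM in PD with n = 3 each, and its log2 fold change was 1.12. Both were upregulated DEGs, as were 2.04% of all tested genes. CYP2U1 rose by 0.66 and CYP2R1 by 0.46 on this scale, and with voom, where 6.72% of genes were upregulated DEGs, CYP2U1 rose by 1.44.

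**Figure D3:**
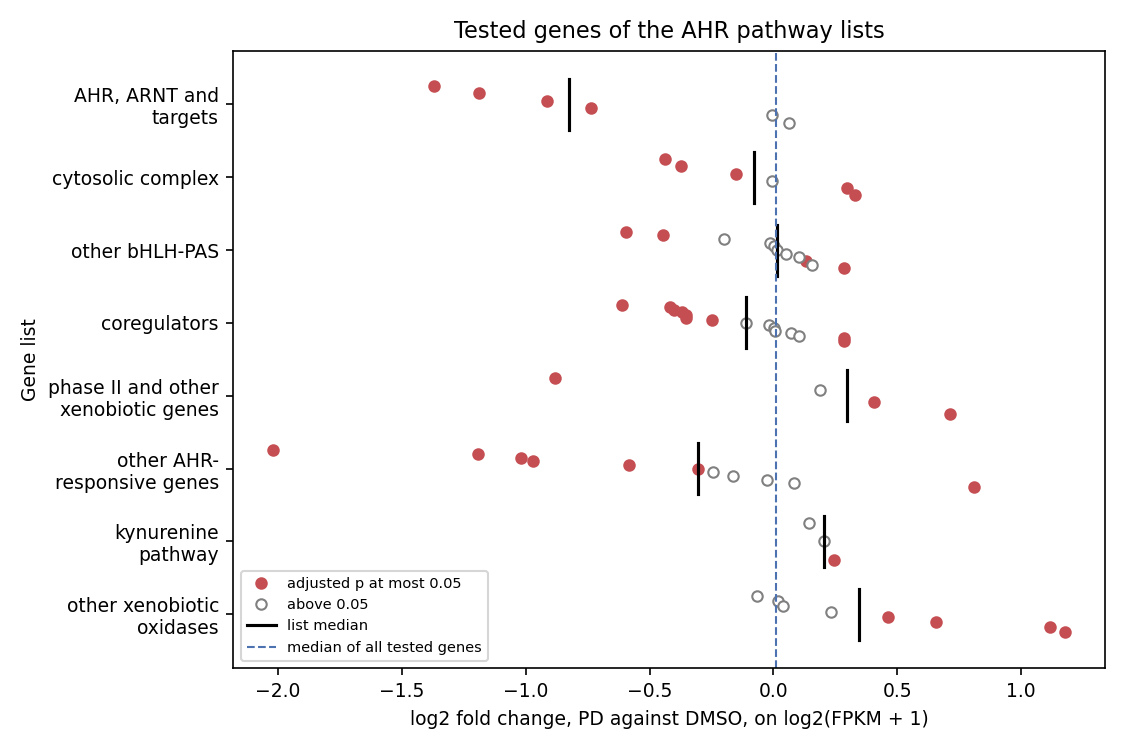
Log2 fold change of PD against DMSO on log2(FPKM + 1) for the tested genes of the 8 gene groups. Red points passed the adjusted p threshold of 0.05, open points did not, black bars are medians and the dashed line is the median of all tested genes (0.01). The median is -0.83 for AHR, ARNT and their targets together, and 0.35 for the other xenobiotic oxidases.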

How the data were processed

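RNA from 3 PD and 3 DMSO dishes was analysed, with samples assigned to treatments by their labels. Per the labels, mRNA was purified with poly-T beads, and HISAT2, HTSeq 0.6.0 and hg38 were used. The authors deposited FPKM per gene and library. The annotation and the strand setting of counting are not given in the sources used here.

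Tests were run on log2(FPKM + 1) with limma 3.58.1 (R 4.3.3, trended prior, no covariate) for the 14400 genes whose mean reached 0.5 FPKM, with Benjamini-Hochberg adjustment. A pseudocount of 1 makes changes of low genes look smaller. Whole fragments were recovered from FPKM (tolerance 0.0001) with the GENCODE release 44 exon length for 12772 genes and with a common step of the values for 15789 genes, and served for depth and limma voom. Libraries of the same treatment differed by more than sampling noise (chi-square per gene 2.30 to 3.78). Exact tests used scipy 1.17.1. The fits were also run on simulated data in which far fewer genes changed than here, so that run does not settle their accuracy here. Alternatives were a pseudocount of 0.1, no filter, a replicate block, leaving out each library, other scalings, voom and a test beyond 2-fold.

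The members and lists were chosen with earlier results of these data known. Named genes were all members, the cytosolic complex, the 4 largest changes past the threshold in each other list and the 3 nearest profiles. Some genes that this rule names are not reported here. ARNT2, LPCAT2, SLC7A5, ABCG2, TDO2, IDO1, IDO2, PDCD6, CYP1B1-AS1 and the markers were named after their values were seen. Promoter windows are from RefSeq (GRCh38), and upstream bases are from hg38.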

Additional observations from a re-analysis of the deposited data

How the results depend on the processing

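The 4 tested target genes stayed lower and past the threshold under every alternative except the test beyond 2-fold, which 1 of them passed, with log2 fold changes of -1.86 to -1.34 for CYP1B1, -1.23 to -1.15 for AHRR, -1.06 to -0.83 for ALDH3A1 and -0.78 to -0.70 for TIPARP. AHR and ARNT passed the threshold under none of them. When 1 library was left out, AHR ranged from -0.042 (without DMSO replicate 3) to 0.165 and ARNT from -0.041 to 0.028 (without DMSO replicate 1), and without PD replicate 2 they were -0.025 and 0.025. CYP1A1, untested at the minimum of 0.5 FPKM, was lower with no filter (-0.59) and with voom (-2.86). The background shares in each direction depended on scaling. Over all tested genes, 4588 passed as higher and 3780 as lower, against 4258 and 4145 with median-of-ratios scaling. With upper quartile scaling, 4166 passed as higher and 4266 as lower. The number of DEGs among all genes was 294 higher and 226 lower, and it became 698 and 550 with a pseudocount of 0.1, 1012 and 723 with voom, and 68 and 33 in the test beyond 2-fold. Downregulated DEGs among the 8 members were 2, or 3 with a pseudocount of 0.1, 4 with voom (CYP1A1 among them) and 1 in the test beyond 2-fold. In the other pathway lists, upregulated DEGs were 2, or 4 with a pseudocount of 0.1, 4 with voom and 0 in the test beyond 2-fold, and downregulated DEGs were 3, or 6 with voom, 4 under both scalings, 2 in the test beyond 2-fold and 2 without PD replicate 1. The replicate numbers were not used as pairs in the main test. The deviations of same-numbered libraries correlated at 0.01, -0.13 and 0.18, and those of unlike-numbered libraries at -0.226 to 0.235. With 3 libraries per group, these values cannot settle whether the numbers pair the samples. With the number as a block, 294 genes were upregulated and 224 downregulated DEGs, and no call of a member changed. CYP1A1 had 2 to 10 fragments in the PD libraries, which limits the precision of its change.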
